A study of Mus musculus with 2 samples.

Results

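The 5 microRNA genes described here lie inside introns of heart and muscle genes: Mir208a in Myh6, Mir208b in Myh7, Mir499 in Myh7b, Mir486 in Ank1 and Mir490 in Chrm2. They were found by matching Ensembl gene identifiers to these symbols in GENCODE M21, and all 5 of 5 were present among the 2202 microRNA genes counted. The set was chosen by its sense reads and their ratio between these libraries, so their levels and ratios are given as a description and without a test. The series holds 2 microRNA libraries, with inserts under 30 nt, labelled as gastrocnemius (calf) muscle of B6CASTF1/J mouse pups, all male and 4 days old. B6CASTF1/J mice are the F1 cross between the C57BL/6 and CAST strains. The libraries form 1 group with no treatment, mutation or second condition. They carry biological replicate numbers 1 and 2, and animal numbers 3 and 4 under a shared donor identifier.

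A microRNA is cut from a hairpin in a longer transcript. For an intronic microRNA this can be the transcript of the gene that hosts it. The mature strand of the hairpin then guides repression of messenger RNAs, chiefly through its seed, bases 2 to 8. Cardiac muscle and slow skeletal fibres use their myosin heavy chain genes both as motor protein genes and as hosts of microRNAs. Myh6 encodes the fast alpha-myosin of the heart. Myh7 encodes the slow beta-myosin shared by heart and slow fibres, and Myh7b is a related slow-type myosin gene. Ank1 encodes an ankyrin of red cells and of the muscle sarcoplasmic reticulum, and Chrm2 encodes the muscarinic receptor that slows the heart.

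The myosin-hosted members are shown first, since 3 of the 5 genes carry nearly the same seed. The sequences are from RefSeq on GRCm38.p6, the C57BL/6J reference, where 4 of the 5 members were matched and Mir486 was not. Each is written 5′ to 3′ with the seed in capitals.
mmu-miR-208a-3p: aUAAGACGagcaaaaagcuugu
mmu-miR-208b-3p: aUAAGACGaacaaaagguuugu
mmu-miR-499-5p: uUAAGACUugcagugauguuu
mmu-miR-490-3p: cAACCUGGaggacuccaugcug
The 3p strands of Mir208a and Mir208b were identical at 19 of 22 bases, including 7 of 7 seed bases. Counted from the 5′ end, miR-208b-3p differed from miR-208a-3p by G10A, A16G and C18U. The miR-499-5p strand matched 6 of the 7 seed bases of miR-208a-3p, with G8U as the seed difference, and 12 of 21 bases in all. Among 1738 mature mouse sequences, the seed of miR-208a-3p occurred in 2, both from this pair, and the seeds of miR-499-5p and miR-490-3p each occurred in 1. Mir490 thus shares no seed with the myosin-hosted members.

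The hairpins of Mir208a and Mir208b are shown because reads of this pair, with a shared seed, had to be assigned to 1 gene or the other. Both annotated mature strands are in capitals.
Mir208a: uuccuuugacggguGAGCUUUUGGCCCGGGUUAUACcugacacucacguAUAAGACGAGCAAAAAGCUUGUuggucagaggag
Mir208b: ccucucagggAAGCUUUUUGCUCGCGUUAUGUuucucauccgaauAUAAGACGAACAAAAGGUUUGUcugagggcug
The 5p strands were identical at 16 of 22 bases. In GENCODE, Mir208a, Mir208b, Mir499 and Mir490 shared 0 stretches of 18 nt with any other annotated microRNA gene on either strand. Mir486 was the exception among the members. Its annotated hairpin overlaps Mir3107 on the opposite strand, and 2 of its 107 stretches of 22 nt, or 10 of 111 of 18 nt, also read identically on the other strand. Reads of those stretches would map to more than 1 place and be set aside. The share of stretches is not the share of reads lost, since reads of a hairpin gather on its mature strands. The mature strands of Mir486 were not matched, and whether these stretches hold one was not checked. If they do, its reads could be largely set aside. How many reads were set aside is not known from the counts, so the Mir486 values are uncertain. The counts are per gene and do not separate the mature strands of a hairpin.

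Each member lies on the same strand as its host and inside an intron (mm10). Mir208a (ENSMUSG00000065432.1, chromosome 14, 54949060 to 54949142) lies in intron 29 of the full-length Myh6 transcripts, 17785 nt from the start of the gene. Mir208b (ENSMUSG00000077928.1, chromosome 14, 54975700 to 54975776) lies in intron 31 of the full-length Myh7 transcripts, 18850 nt from its start. The hosts are neighbours, and the hairpins lie 26557 nt apart. Mir499 (ENSMUSG00000076312.1, chromosome 2, 155622880 to 155622958) lies in intron 19 of Myh7b, 50.5% of the way along the gene. The myosin introns are short, at 542 nt for Myh6, 461 nt for Myh7 and 481 nt for Myh7b. Mir486 (ENSMUSG00000070084.3, chromosome 8, 23142555 to 23142682) lies 95.5% of the way along Ank1, in an intron of 6560 nt in most of its transcripts. Some short coding Ank1 transcripts start much closer to the hairpin than the gene does, such as Ank1-208 at 23139030. Mir486 also lies opposite the antisense gene Gm15816. Mir490 (ENSMUSG00000070075.1, chromosome 6, 36421742 to 36421825) lies in intron 2 of the coding Chrm2 transcript, an intron of 134418 nt.

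**Figure D1:**
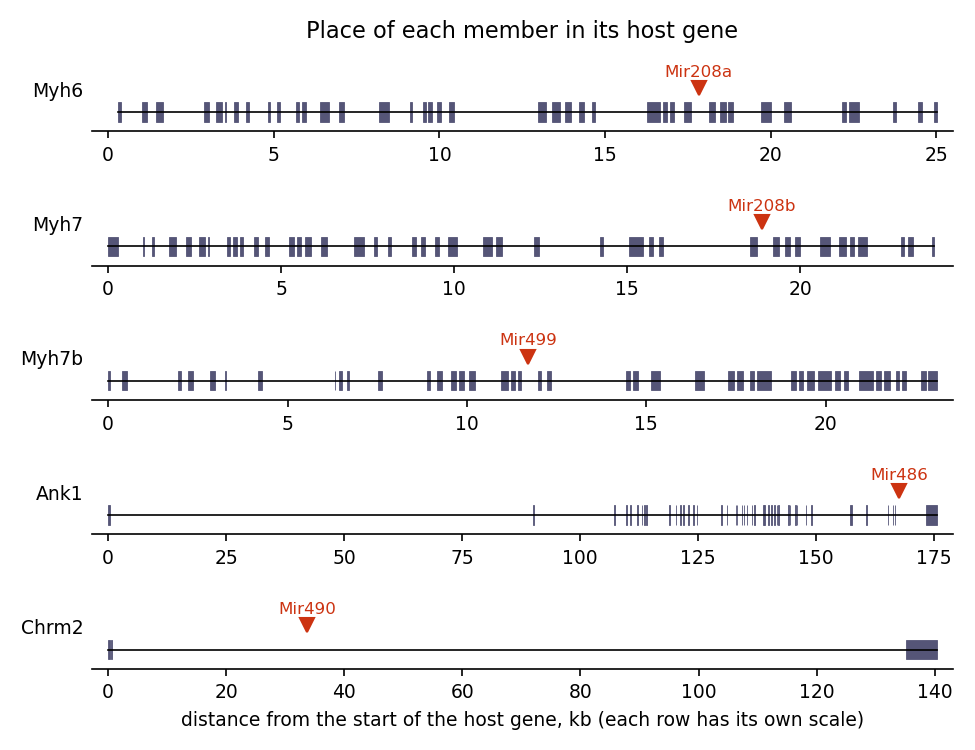
Exons (boxes) of 1 coding transcript of each host gene and the position of the microRNA (triangle), against distance from the start of the host gene in kb; each row has its own scale. Mir208a and Mir208b sit in the later part of their myosin genes, at 71.1% and 78.7% of the gene length, while Mir490 sits at 24.0% of Chrm2.

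The libraries differed in markers of the labelled tissue, which bears on every value below. Sense-strand microRNA reads numbered 4458853 in replicate 1 and 3073086 in replicate 2, and a count of 0 would allow up to 0.673 and 0.976 CPM (sense reads in 1000000 microRNA reads). Mir206, a microRNA restricted to skeletal muscle, had 652657 reads in the library labelled replicate 1 and 101 in the library labelled replicate 2. Its neighbour Mir133b had 427 and 10. The values of the library labelled replicate 2 thus go against its gastrocnemius label, and the tissue it holds is in doubt. The heart-restricted microRNA is itself a member, Mir208a, and was at its highest in the library where Mir206 was low. Every value is therefore given for each library separately. Log2 ratios are replicate 2 over replicate 1, scaled by the trimmed mean of M values (TMM), with 95% intervals that cover counting error only. With 1 library at each end, differences in the tissue sampled, between animals, in cell content or in library preparation cannot be told apart, nor can fewer cells of a type and less RNA per cell.

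Mir208a, which in the heart takes part in the stress response of the myosin genes, had the highest ratio of the 410 genes with at least 10 reads in total. It had 59 reads in replicate 1, or 0.00132% of microRNA reads (95% interval 0.00101 to 0.00171%). It had 29718 reads in replicate 2, or 0.967% (0.956 to 0.978%). The library labelled replicate 2 was 466-fold higher, a log2 ratio of 8.86 (8.52 to 9.28). Mir208a ranked at 254 among all genes in replicate 1 and at 17 in replicate 2. The 59 reads in replicate 1 were above the limit that a count of 0 allows. That limit covers counting error only, and whether some of these reads were misassigned was not tested.

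Mir208b and Mir499, which promote the slow fibre programme in part by repressing the transcription factor Sox6, were also higher in replicate 2 but by far less. Mir208b had 1068 reads, or 240 CPM, in replicate 1 and 4340 reads, or 1412 CPM, in replicate 2. Its log2 ratio was 1.93 (1.84 to 2.03), a 3.82-fold difference. Mir499 had 1953 reads, or 438 CPM, in replicate 1 and 8633 reads, or 2809 CPM, in replicate 2. Its log2 ratio was 2.05 (1.98 to 2.13), a 4.15-fold difference. Both genes were thus well counted in both libraries, and 33 and 30 genes had a higher ratio than Mir208b and Mir499.

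Mir486, a microRNA enriched in muscle and in red cell precursors, had the smallest ratio of the members. It had 456 reads in replicate 1, or 0.0102%, and 1468 reads in replicate 2, or 0.0478%. The log2 ratio was 1.60 (1.44 to 1.75), and 46 genes had a higher one. The erythroid markers Mir451a and Mir144 were higher in the same library, with 864 and 2416 reads for Mir451a and 119 and 593 for Mir144. Their summed share was 0.0220% in replicate 1 and 0.0979% in replicate 2. Mir486 reads were 0.528 times those of Mir451a in replicate 1 (0.470 to 0.592) and 0.608 times in replicate 2 (0.569 to 0.649). This ratio was 1.15-fold higher in replicate 2. Relative to Mir144 the Mir486 reads were 3.83 times (3.13 to 4.73) and 2.48 times (2.25 to 2.73). That ratio was thus lower in replicate 2, at 0.646 times its value in replicate 1. The part of erythroid cells in the Mir486 difference was not tested.

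Mir490, hosted by the muscarinic receptor gene, had the second highest ratio of all 410 genes compared. It had 45 reads in replicate 1, or 0.00101% (0.000736 to 0.00135%), and 1275 reads in replicate 2, or 0.0415% (0.0392 to 0.0438%). The log2 ratio was 4.71 (4.31 to 5.20), a 26.1-fold difference. Smooth muscle markers were also higher in replicate 2 as a share. Mir143, Mir145a and Mir145b together held 2.17% of replicate 1 and 4.90% of replicate 2, and Mir145b had 0 reads in both libraries. Under TMM the log2 ratios were 0.54 for Mir143 and 0.88 for Mir145a, with 0 of 2 compared genes at least 2-fold higher. Mir490 reads were 0.000476 times those of Mir143 in replicate 1 and 0.00871 times in replicate 2, an 18.3-fold difference in that ratio, and the difference relative to Mir145a was 14.5-fold. The part of smooth muscle in the Mir490 difference was not tested.

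**Figure D2:**
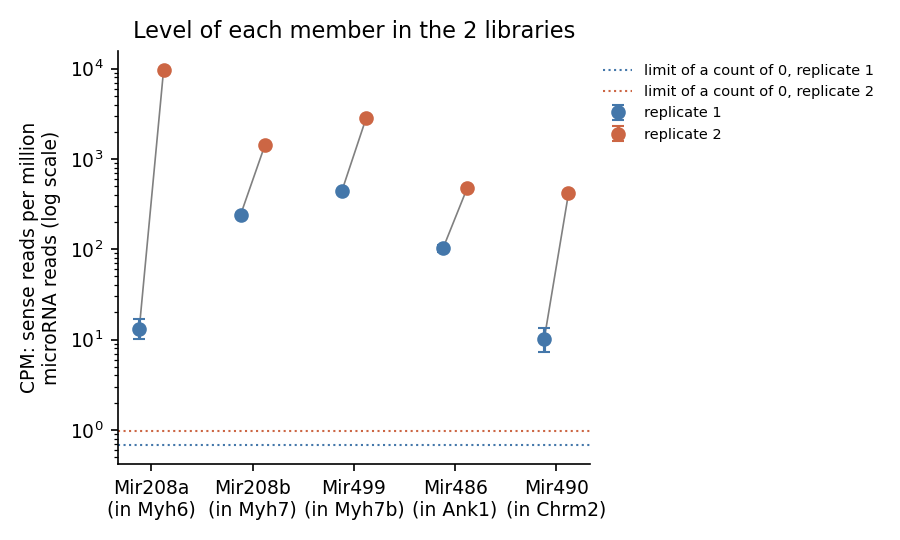
CPM (log scale) of the 5 members in replicate 1 (blue) and replicate 2 (orange), with exact 95% counting intervals and dotted lines at the limit that a count of 0 allows. Each member is higher in replicate 2, from 102 to 478 for Mir486 and from 13.2 to 9670 for Mir208a.

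All 5 members were at least 2-fold higher in the library labelled replicate 2, where 20.7% of the 410 genes compared were (85 genes) and 37.8% were at least 2-fold lower (155 genes). The members were chosen for this contrast, so nothing is read from that count. The median log2 ratio of all compared genes was −0.33, which lies below every member. MicroRNA genes in a same-strand intron of any protein-coding gene, members included, held 24.75% of replicate 1 and 47.1% of replicate 2. Of the 146 compared genes in such introns that are not members, 22 (15.1%) were at least 2-fold higher and 50 (34.2%) at least 2-fold lower, with a median log2 ratio of −0.47. With DESeq2 size factors 29 were higher and 40 lower (median −0.21), and using total reads the counts were 43 and 35 (median 0.13).

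**Figure D3:**
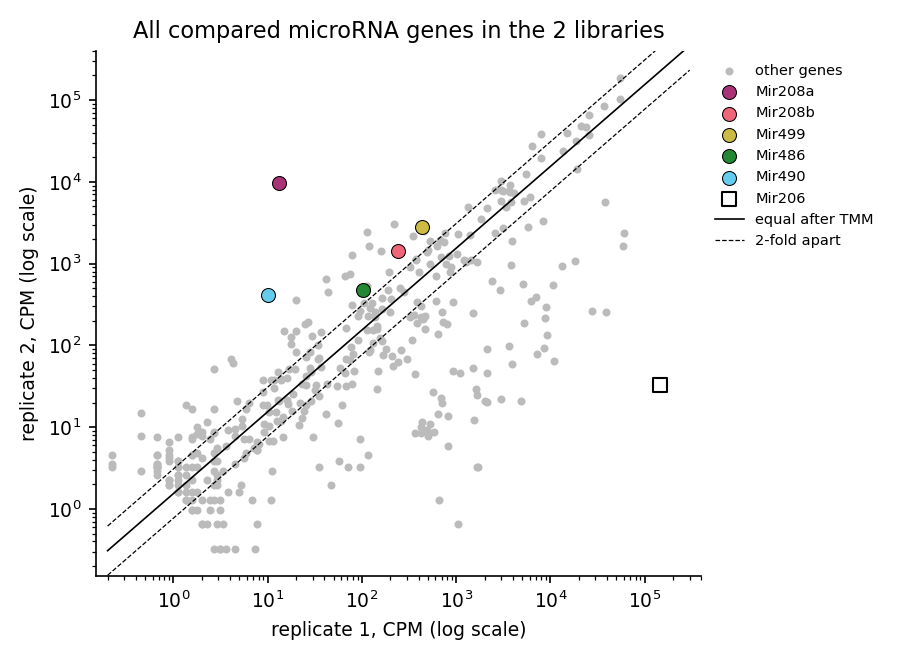
CPM in replicate 1 and replicate 2 (both log scales) of the 397 compared genes with a read in both libraries, with the line of equal level after TMM scaling and dashed lines 2-fold from it. The 5 members lie above the upper dashed line, Mir208a farthest from it, while Mir206 lies far below the lower one.

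The order of the members differed between the libraries. Mature strands were 20 to 23 nt in the 4 matched genes, so reads were compared between genes without a length correction. Read lengths were not examined, and how well each microRNA is captured in a library was not measured. The order is therefore one of counted reads, and the place of Mir486 is uncertain because some of its reads may be set aside. In replicate 1 the order was Mir499, Mir208b, Mir486, Mir208a and Mir490. The last pair could not be separated there, since Mir208a had 1.31 times the reads of Mir490 with an interval of 0.875 to 1.98. In replicate 2 the order was Mir208a, Mir499, Mir208b, Mir486 and Mir490. The last pair was again the closest, with 1.15 times as many reads of Mir486 as of Mir490 (1.07 to 1.24).

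Summed over the 5 members, the share of microRNA reads was 0.0803% (0.0777 to 0.0830%) in the first library and 1.48% (1.46 to 1.49%) in the second, and most of that gap was Mir208a. Mir208a made up 1.65% of the members' reads in replicate 1 (1.26 to 2.12%) and 65.4% in replicate 2 (65.0 to 65.8%). Without it, the other 4 held 0.0790% and 0.511% of microRNA reads. Mir499 made up 54.5% of the members' reads in replicate 1 and 19.0% in replicate 2, and Mir208b 29.8% and 9.55%. Mir486 made up 12.7% and 3.23%, and Mir490 1.26% and 2.81%.

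**Figure D4:**
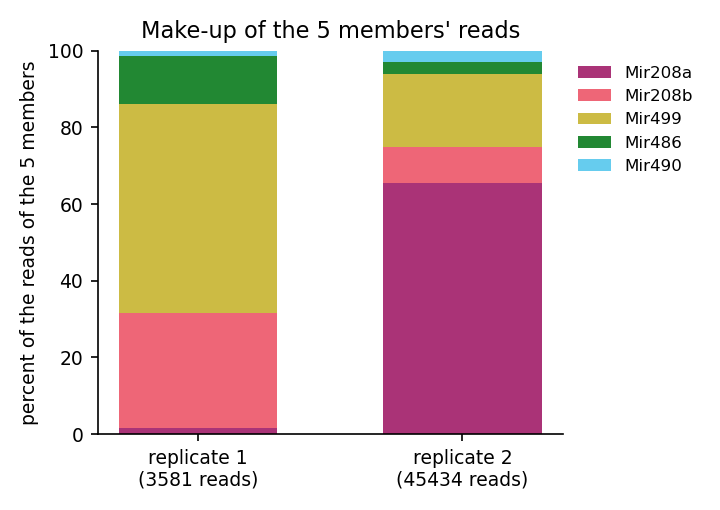
Percent of the reads of the 5 members that fell to each, in replicate 1 (3581 reads) and replicate 2 (45434 reads). Mir499 and Mir208b make up most of the first bar and Mir208a 65.4% of the second.

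Ratios between members need no scaling between libraries, because both genes were counted in the same library. Mir499 and Mir208b kept nearly the same ratio, 1.83 in replicate 1 (1.70 to 1.97) and 1.99 in replicate 2 (1.92 to 2.06). That ratio was 1.09-fold higher in replicate 2. Mir208a stood apart from both genes. Relative to Mir499 it was 0.0302 in replicate 1 (0.0229 to 0.0391) and 3.44 in replicate 2 (3.36 to 3.53), a 114-fold difference. For the pair that shares a full seed, Mir208a over Mir208b, the libraries differed 124-fold in the ratio. Summed over that pair, sense reads were 0.0253% of replicate 1 and 1.11% of replicate 2, and Mir208b supplied most of them in the former. Mir490 over Mir499 was 6.41-fold higher in replicate 2, whereas Mir486 was 0.233 times Mir499 in replicate 1 and 0.170 times in replicate 2.

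The members spread over a wide span of ratios. Among genes with at least 100 reads in total, the nearest to Mir499 were Mir15b (1539 and 6761 reads, log2 ratio 2.04) and Mir208b. The nearest to Mir208b were Mir184 (79 and 315 reads, 1.89) and Mir497 (2013 and 7772 reads, 1.86). The nearest to Mir486 were Mir132 (507 and 1616 reads, 1.58) and Mirlet7b (35150 and 116887 reads, 1.64). Mir490 had no close neighbour, since Mir34a (501 and 7414 reads, 3.80) was 0.91 away on the log2 scale and Mir215 (12 and 159 reads, 3.54) was 1.17 away. Mir208a had none either, as Mir490 was 4.16 away and Mir34a 5.07. With 1 ratio a gene from 2 libraries, this likeness describes these libraries only.

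Scaling moved the size of the ratios and not their direction. With DESeq2 size factors the log2 ratios were 9.14 for Mir208a, 4.98 for Mir490, 2.33 for Mir499, 2.21 for Mir208b and 1.87 for Mir486. With total reads they were 9.48, 5.32, 2.68, 2.56 and 2.22 in the same order. The median of all compared genes moved with them, from −0.33 under TMM to −0.07 and 0.26. Of all genes compared, 27.6% were at least 2-fold higher with the former and 34.9% with the latter, against 32.9% and 29.8% at least 2-fold lower. In either direction, 58.5% of genes were at least 2-fold apart under TMM, 60.5% with DESeq2 size factors and 64.6% using total reads. All 5 members were among those higher in each case.

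**Figure D5:**
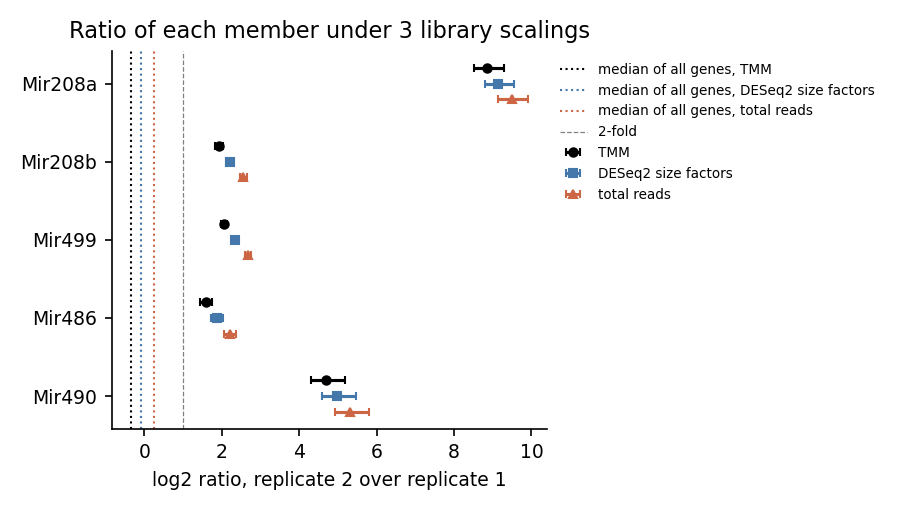
Log2 ratio of replicate 2 over replicate 1 for each member under TMM (circles), DESeq2 size factors (squares) and total reads (triangles), with 95% counting intervals, and the median of all compared genes as dotted lines. The members lie to the right of the 2-fold line under all 3 scalings, with Mir208a near 9 and the other myosin-hosted members near 2.

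Most of the compared genes among the other muscle microRNAs, Mir1, Mir133 and Mir206, were lower in replicate 2 under TMM, some on few reads. Of 8 annotated genes 5 were compared, 0 were at least 2-fold higher and 4 were at least 2-fold lower in replicate 2, with a median log2 ratio of −1.13. With DESeq2 size factors or total reads, 1 was at least 2-fold higher and 2 were lower. The gene that was higher is Mir1a-2, with 87 and 156 reads and a log2 ratio of 0.75 (0.37 to 1.15) under TMM. Among the genes lower under TMM, Mir1a-1 had 13 and 6 reads and a log2 ratio of −1.08. Its interval of −2.89 to 0.29 leaves the direction unclear. Mir133a-1 had 34 and 16 reads, with −1.13 (−2.13 to −0.28). Mir206 and Mir133b were lower by far more, at −12.7 and −5.37. The list held 14.7% of replicate 1 and 0.00950% of replicate 2, nearly all of it Mir206 in the former. Several of these genes have near-identical copies, and reads mapping to more than 1 copy were set aside. Mir208a had 0.0000904 times the reads of Mir206 in replicate 1 and 294 times in replicate 2. Mir499 and Mir208b also passed from far below Mir206 to 85.5 and 43.0 times its reads.

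MicroRNAs linked to cardiac growth and stress were mixed. Of 8 genes 7 were compared, 3 were at least 2-fold higher and 2 at least 2-fold lower in replicate 2, with a median log2 ratio of 0.99. Mir132 stood at 1.58, Mir22, which supports cardiac growth, at 1.46 and Mir212 at 1.01. Mir21a, a microRNA of fibroblasts and injury, stood at −1.67, and Mir199a-2, on 254 and 12 reads, at −4.38. With DESeq2 size factors or total reads, 4 were higher and 2 lower.

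Markers of other cell types also differed between the libraries. White blood cell markers held 0.0793% of replicate 1 and 0.429% of replicate 2, with 3 of 5 compared genes at least 2-fold higher and 1 lower. Epithelial markers held 0.00401% and 0.0424%, with 3 of 5 higher, and the endothelial markers 2.54% and 6.62%, with 0 of 1 compared genes 2-fold apart. Fibroblast markers held 0.591% and 0.281%, with 3 of 3 compared genes lower. Nearly all of this share was Mir214, with 25804 and 8555 reads. Mir199a-2 had 254 and 12 reads and Mir199b 275 and 58. Mir199a is annotated at more than 1 gene, and reads mapping to more than 1 were set aside. Neuronal markers held 0.108% and 0.0299%, with 2 of 2 compared genes, Mir128-1 and Mir128-2, lower. The 6 Mir9 and Mir124a genes had 0 counted reads in both libraries. These microRNAs are each annotated at several genes, and reads mapping to more than 1 copy were set aside. Their absence from the tissue therefore cannot be read from the 0. The liver marker Mir122 had 1152 and 269 reads. These counts are under TMM and some moved with the scaling. With DESeq2 size factors the white blood cell markers had 3 higher and 0 lower, the epithelial ones 4 higher, the endothelial ones 1 higher and the smooth muscle ones 1 higher. Using total reads these came to 4 and 0, 5, 1 and 2. The part of these cell types in the members' values was not tested.

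The starts of Myh6 and Myh7 are shown because the microRNAs of these neighbouring genes share a seed but had log2 ratios of 8.86 and 1.93. Each window runs from 250 bases before to 50 bases after an annotated RefSeq start (GRCm38.p6), on the strand of the gene. Capitals mark matches to the MCAT box, CATTCC on either strand (GGAATG when read from the other), and to the TATA box, TATAAA. The Myh6 window is chr14:54966558-54966857, minus strand, and the Myh7 window chr14:54994577-54994876, minus strand.
Myh6: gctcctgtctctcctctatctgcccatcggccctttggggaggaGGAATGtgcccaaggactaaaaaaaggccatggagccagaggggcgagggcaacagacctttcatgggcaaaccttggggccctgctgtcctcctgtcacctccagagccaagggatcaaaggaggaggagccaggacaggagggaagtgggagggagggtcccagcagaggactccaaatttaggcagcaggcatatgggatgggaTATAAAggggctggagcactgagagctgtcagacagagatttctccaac
Myh7: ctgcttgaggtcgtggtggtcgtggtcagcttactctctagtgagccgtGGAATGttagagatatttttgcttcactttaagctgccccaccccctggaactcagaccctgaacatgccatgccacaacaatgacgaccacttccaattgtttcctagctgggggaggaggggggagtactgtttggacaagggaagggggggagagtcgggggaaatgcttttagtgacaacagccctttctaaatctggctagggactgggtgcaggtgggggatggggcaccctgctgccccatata
An MCAT match began 206 bases before the start of Myh6 and 201 bases before that of Myh7, and 14.7% of 32851 promoter windows of the same length hold one. The TATA match in Myh6 began 1 base after the RefSeq start used here, and 13.6% of windows hold a match at any position. Coding Myh6 transcripts in GENCODE start at several positions, among them 54966641 and 54966574. The place of the match relative to a start thus depends on the transcript. The windows of Myh7b, of Chrm2 and of the other annotated Myh7 start held 0 matches to the MCAT or TATA box. An E-box, CANNTG, was found 1 time in the Myh6 window and 2 times in the Myh7 window shown, and 72.3% of all windows hold one. The same windows held 0 matches to AGATAA (in 11.2% of all windows), the CArG box (1.63%) and the MEF2 site (0.557%), each searched on both strands. In the Myh7b window there were 2 E-box matches and 1 match to AGATAA, and in the Chrm2 window 0 matches to any motif searched. These matches are letters in a window. The transcripts of the host genes were not measured, and no binding was measured.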

How the data were processed

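The authors deposited raw counts of reads on each microRNA gene, with unstranded, sense and antisense columns in a file for each library. The deposited description files name mm10 and GENCODE M21. Aligner and trimming: not given in the sources used here. The files have the layout of STAR gene counts, where multimapping reads are not assigned to genes. Multimapping reads came to 35.7% of reads in replicate 1 and 45.1% in replicate 2. Summary lines stayed out of library sizes.

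The sense column was used. Log2 ratios used a prior count of 1 and TMM sizes (edgeR 4.0.16, R 4.3.3) from the 410 genes with at least 10 reads in total. Intervals are exact (Clopper-Pearson, scipy 1.17.1). No model was fitted and no p-value computed, because there was 1 group. The calculation of ratios and intervals was run on simulated Poisson counts. These hold only counting error and the ratios set in advance, so the run does not cover other differences between the libraries. Alternatives were DESeq2 1.42.0 size factors, total reads, the unstranded column, a prior count of 5 and other minimum counts. Genes of like ratio were the nearest 2 with at least 100 reads. Reads without molecular identifiers are not independent molecules. The members and lists were chosen with earlier results of these data known.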

Additional observations from a re-analysis of the deposited data

Results flagged for a closer look

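Reads on the strand opposite Mir486 were counted in a column that the comparisons above do not use. There were 9 in replicate 1 and 27 in replicate 2, above the limit of 3 reads that a count of 0 allows. The same 9 and 27 reads were counted as sense reads of Mir3107 (ENSMUSG00000106471.1, mm10 chromosome 8, 23142573 to 23142662), which overlaps Mir486 on the other strand. Mir486 had 50.7 times the reads of Mir3107 in replicate 1 (26.5 to 112) and 54.4 times in replicate 2 (37.2 to 82.8). The other 4 members had 0 antisense reads in both libraries.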

How the results depend on the processing

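No member changed direction under the alternatives run, and all members compared stayed at least 2-fold higher in replicate 2. Over all 410 genes the balance did turn, from 85 higher and 155 lower under TMM (median −0.33) to 143 higher and 122 lower with total reads (median 0.26). DESeq2 size factors took 3 log2 ratios outside their counting interval, to 2.21 for Mir208b, 2.33 for Mir499 and 1.87 for Mir486. Total reads took all 5 outside it, to 9.48 for Mir208a, 2.56 for Mir208b, 2.68 for Mir499, 2.22 for Mir486 and 5.32 for Mir490. The unstranded column gave 2.10 for Mir208b and 2.23 for Mir499, and no value for Mir486, whose reads are there set aside as ambiguous with Mir3107. It left 4 members to compare. Genes at least 2-fold apart numbered 240 of 410, 431 of 719 with a minimum of 1 read and 158 of 266 with a minimum of 100 reads, where the number of genes compared differs by construction. The summed share of the 5 members was 0.779% ± 0.989 (SD, n = 2) and ran from 0.0803% to 1.48% with 1 library left out. No paired analysis was possible because there is a single group. Depth limits Mir208a and Mir490 in replicate 1, with 59 and 45 reads.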
